A study of Mus musculus with 18 samples.

Results

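The genes described here belong to the solute carrier families Slc1, Slc3, Slc6, Slc7, Slc36, Slc38 and Slc43, most of which encode proteins that move amino acids across membranes. Members were the protein-coding genes whose symbol begins with one of these family names followed by a member number, and 41 of the 16272 genes tested in the series met this rule. A further 23 annotated genes that fit the same name pattern, out of 64 in all, were not among the tested genes, which had been filtered for low counts. *Slc7a6os* met the rule by its name alone. It lies beside *Slc7a6* and encodes the counterpart of a yeast RNA polymerase transport factor, not a carrier, so that 40 members remain without it.

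Perigonadal white adipose tissue was sequenced in bulk from female wild-type C57BL/6J mice (labelled C57b/6J), nine-week-old when bought, with 6 libraries in each of 3 groups and each library labelled as a separate mouse. Activity-based anorexia (ABA) mice had a running wheel and feeding hours that were shortened step by step until they had lost a set share of their weight. Weight-restored (WR) mice went through the same schedule and then ate freely until their weight had returned and was stable. Control (CON) mice ate freely and each was killed at the time of an ABA mouse. All groups were housed singly with a wheel and carried no engineered allele. WR mice were older at collection and had spent longer on the wheel than the other groups, so that weight restoration and these features cannot be told apart in any comparison with WR. ABA mice differed from CON mice in feeding hours, and the paper reports that they ran for less time and distance during scheduled feeding. Weight loss and these features cannot be told apart in ABA minus CON.

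Cells take up most amino acids through such carriers, because charged and polar molecules do not cross lipid membranes unaided. Sodium-coupled carriers pump amino acids inward, exchangers then trade one amino acid for another, and proton-coupled carriers on lysosomes return the products of protein breakdown to the cytosol, where the mTORC1 kinase complex reads their supply. The exchangers of family Slc7 known as light chains reach the cell surface joined to a heavy chain of family Slc3. When amino acids run short, the transcription factor ATF4 raises the transcription of several carriers through amino acid response elements in their promoters. In fat, amino acids feed protein and lipid synthesis, and adipose tissue releases glutamine and alanine during fasting.

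Promoters of members were searched for the core of this response element, TGATGNAA, on both strands. The search covered 250 bases before to 50 bases after each start in the RefSeq set for GRCm38.p6, in which 30 of the 41 members were matched, with 49 start windows. The core was present in 4 of the 49 member windows (8.16%), against 3.97% of all 32851 promoters in the set and 2.26% of the 14031 promoters of tested genes. Those 4 windows belonged to 3 members, *Slc7a11*, *Slc7a7* and *Slc1a4*. Members without a match were not searched, and neither was sequence outside the windows. A member not named here is therefore not shown to lack the element. Windows of different *Slc7a7* starts overlapped and held a core in common, so that the 4 windows are not independent. Member windows with the same start were counted once, which was not done for the other promoters. Members were matched by gene identifier or symbol, and tested genes by symbol only. The shares are therefore not like for like, and the difference between them was not tested. The *Slc7a11* promoter is shown because it held the core on both strands and because this gene had the largest fall of any member between WR and ABA. A *Slc7a7* window is shown as the contrast, since that gene was not called in any comparison. In each sequence, written 5′ to 3′ along the gene's strand and taken wholly from before the start, capitals mark the core or its reverse complement.
*Slc7a11*, chr3:50443637-50443696, minus strand: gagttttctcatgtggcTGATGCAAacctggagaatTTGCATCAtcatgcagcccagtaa
*Slc7a7*, chr14:54418052-54418111, minus strand: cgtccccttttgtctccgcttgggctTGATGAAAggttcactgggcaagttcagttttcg
In *Slc7a11* the elements lay 66 to 59 and 47 to 40 bases before the start. In the *Slc7a7* sequence shown the core lay 141 to 134 bases before it. The same *Slc7a7* window held a further core across the start, from 1 base before it to 6 bases after, which is not in the printed stretch. A match describes letters in the window, and the factor's binding was not measured.

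Expression was compared through the authors' per-gene values, which give a log2 fold change, a moderated t and a p-value for each comparison. Values of single libraries were not analysed here, so the spread between mice enters through the standard error (SE) of each fold change, obtained by dividing the fold change by its t. A gene was called changed at an adjusted p under 0.05 (limma, Benjamini-Hochberg over all 16272 genes). WR minus ABA was given for every tested gene, while ABA minus CON and WR minus CON were given for called genes only. For a member not listed in ABA minus CON, an approximate limit is given, which is the change that would have reached the list if its SE had equalled that of WR minus ABA. ABA minus CON and WR minus ABA share the ABA libraries, so that their values are set side by side and are not independent of each other. Because the tissue was sequenced in bulk, fewer cells of a type and less RNA per cell cannot be told apart.

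Average levels over the 18 libraries, scaled per kb of exon so that genes can be compared, differed widely among members. The neutral amino acid exchanger *Slc1a5* (ASCT2), known for glutamine exchange, had the highest level, at 7.75 log2 CPM per kb. It was followed by the proton-coupled carrier *Slc36a2* at 6.20, the light chain *Slc7a10* at 5.86 and the glutamate carrier *Slc1a3* at 5.14 log2 CPM per kb. *Slc36a2* and *Slc7a10* are known as surface proteins of brown and beige adipocytes and of white adipocytes. The heavy chain *Slc3a2* stood at 4.68 log2 CPM per kb, above all light chains but *Slc7a10*. The lowest level was that of the cystine and glutamate exchanger *Slc7a11*, at -4.28 log2 CPM per kb. Adipocyte markers were abundant in the tissue, with *Fabp4* at 12.4 and *Adipoq* at 10.9 log2 CPM, and 4 of 5 ovary markers were not among the tested genes.

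**Figure D1:**
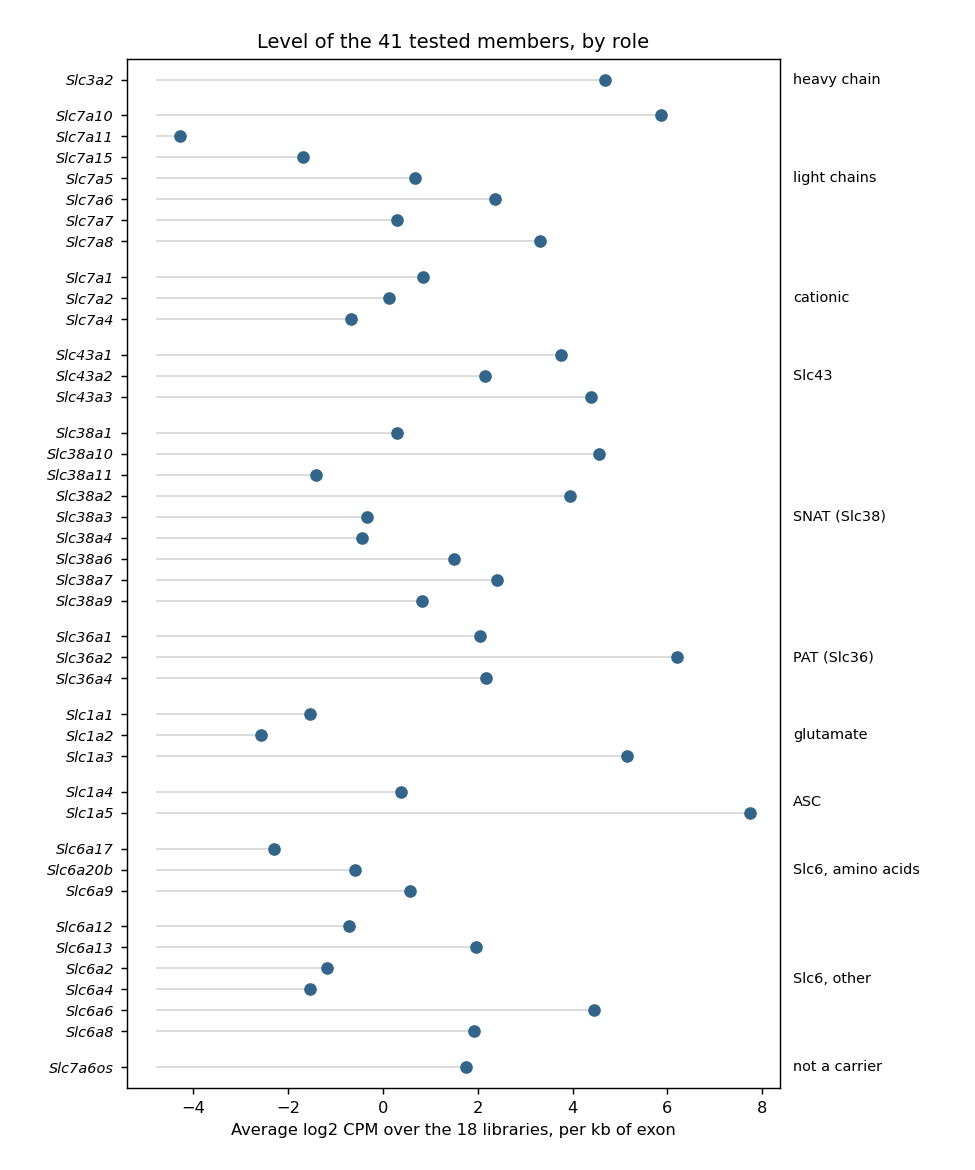
Average level of the 41 members over all 18 libraries, in log2 CPM per kb of exon, grouped by role, with 1 point per gene. Levels ran from -4.28 for *Slc7a11* to 7.75 for *Slc1a5*.

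In ABA mice, 10 of the 41 members were higher and 8 were lower than in CON mice. The rise covered 24.4% of members, against 20.9% of all tested genes, and the fall covered 19.5% of members, against 25.4% of all tested genes. The members were thus called about as often as tested genes in general, and calls went both ways within families Slc1, Slc6, Slc7 and Slc38. In WR mice, 8 members were higher and 12 were lower than in ABA mice. These were 19.5% of members against 25.0% of all tested genes, and 29.3% of members against 20.9%. The median WR minus ABA log2 fold change was -0.08 over members and 0.01 over all tested genes, and its median size was 0.45 and 0.34. The median SE was also larger in members, at 0.22 against 0.15. Between WR and CON, 1 member was higher (2.44%, against 4.04% of all tested genes) and 0 were lower (against 3.18%) by limma. The unadjusted p of the other members was not given for that comparison. By the same count in WR minus ABA, 27 of the 41 members (65.9%) had an unadjusted p under 0.05, against 52.8% of all tested genes. The members called in none of the 3 comparisons numbered 17 (41.5%), against 40.7% of all tested genes.

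**Figure D2:**
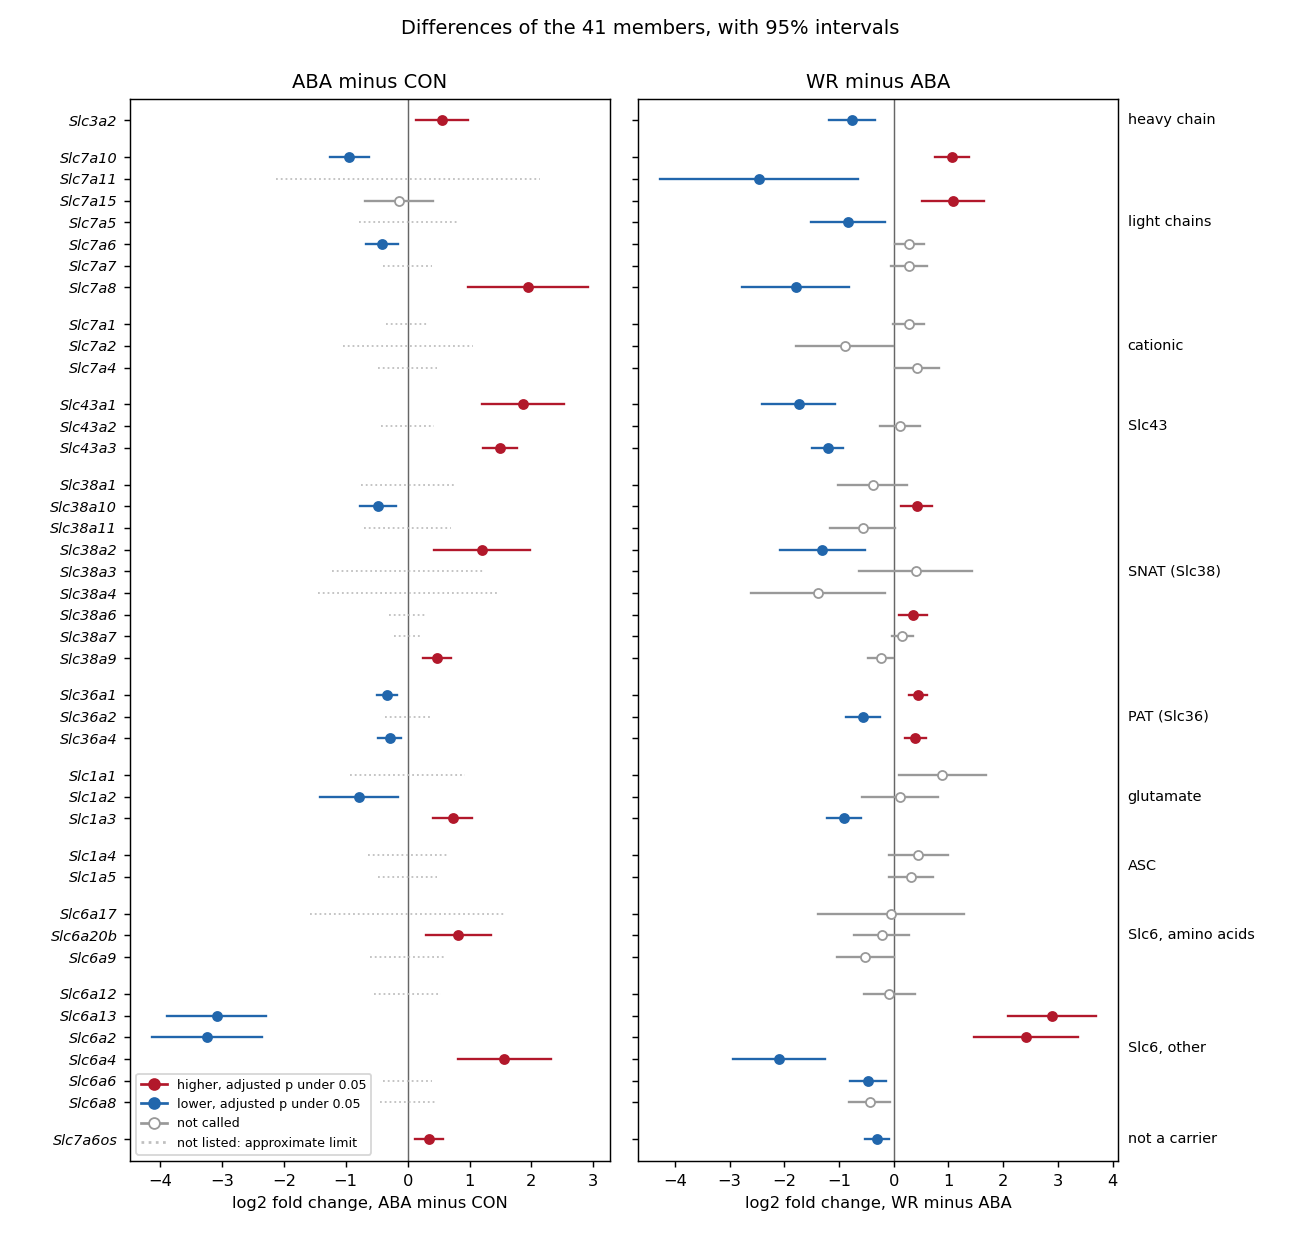
Log2 fold change of each of the 41 members, ABA minus CON on the left and WR minus ABA on the right, with 95% confidence intervals, filled where the adjusted p was under 0.05. Dotted lines on the left show the approximate limit for members not listed, and the open symbol there is the derived value of *Slc7a15*. *Slc6a2* and *Slc6a13* stood furthest to the left in ABA minus CON.

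Among the heavy and light chains listed in ABA minus CON, the largest difference was that of *Slc7a8*, which encodes LAT2, an exchanger of small and large neutral amino acids. *Slc7a8* (ENSMUSG00000022180, chromosome 14 of GRCm38 from 54722209 to 54781946) was 3.84-fold higher in ABA than in CON (log2 fold change 1.94, SE 0.46, adjusted p = 0.00231). It was 3.46-fold lower in WR than in ABA (log2 fold change -1.79, SE 0.46, adjusted p = 0.00418). The heavy chain *Slc3a2*, or CD98, with which LAT2 pairs, was higher in ABA by a smaller amount. It stood at 0.56 on the log2 scale in ABA minus CON (SE 0.20, adjusted p = 0.0288) and -0.76 in WR minus ABA (SE 0.20, adjusted p = 0.00484).

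*Slc7a10* went the other way. It encodes Asc-1, a carrier of small neutral amino acids, and is the light chain with the highest level in this tissue. It was 1.92-fold lower in ABA mice than in CON mice (log2 fold change -0.94, SE 0.15, adjusted p = 7.63e-05) and 2.09-fold higher in WR than in ABA (log2 fold change 1.06, SE 0.15, adjusted p = 2.04e-05). Adipocyte markers moved in both directions beside it. Of 6 such genes, 1 was higher and 2 were lower in ABA minus CON, and 3 were higher and 1 was lower in WR minus ABA, with *Lep* at -6.48 and *Cidec* at 0.84 in ABA minus CON. Their part in the result was not tested. *Slc7a10* also overlaps *Lrp3*, a gene on the opposite strand whose WR minus ABA log2 fold change was 0.51, and the strand setting of the counting is not given in the sources used here.

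*Slc7a6* (y+LAT2), which exchanges arginine for glutamine, was lower in ABA than in CON, at -0.41 on the log2 scale (SE 0.12, adjusted p = 0.0110). Its WR minus ABA value was 0.28 (SE 0.13, adjusted p = 0.0766). *Slc7a5* (LAT1), the carrier of large neutral amino acids such as leucine, was lower in WR than in ABA at -0.83 (SE 0.32, adjusted p = 0.0406). It was not listed in ABA minus CON, where the limit was about 0.79 on the log2 scale. The whole of *Slc7a5* lies within the annotated span of *Gm20388* on the opposite strand, so that its counts are uncertain.

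*Slc7a11* (xCT), whose promoter is shown above, imports cystine for glutathione synthesis. It was 5.52-fold lower in WR than in ABA (log2 fold change -2.46, SE 0.86, adjusted p = 0.0255), with a 95% confidence interval from -4.27 to -0.66. Its average was low, at -0.48 log2 CPM. In ABA minus CON it was not listed, and with this SE a change below about 2.13 on the log2 scale would not have been. *Slc7a7*, whose promoter also holds the core, had a WR minus ABA value of 0.28 (SE 0.16, adjusted p = 0.163), and *Slc1a4* one of 0.45 (SE 0.26, adjusted p = 0.160).

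The light-chain relative *Slc7a15* was the one member called between WR and CON. It was 1.93-fold higher in WR than in CON (log2 fold change 0.95, SE 0.26, adjusted p = 0.0360) and 2.13-fold higher in WR than in ABA (log2 fold change 1.09, SE 0.27, adjusted p = 0.00306). The ABA minus CON difference derived from these was -0.14 and was not listed. Its average was -0.10 log2 CPM, so that these values rest on low counts.

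Family Slc43 held the member with the smallest adjusted p in both ABA minus CON and WR minus ABA. *Slc43a3* (ENSMUSG00000027074, chromosome 2 of GRCm38 from 84936579 to 84958509) encodes a carrier of purine nucleobases and not of amino acids. It was 2.81-fold higher in ABA than in CON (log2 fold change 1.49, SE 0.13, adjusted p = 2.93e-07) and 2.31-fold lower in WR than in ABA (log2 fold change -1.21, SE 0.13, adjusted p = 1.90e-06). *Slc43a1* (ENSMUSG00000027075) lies 73.0 kb before it on the same strand, with 1 coding gene between, and encodes LAT3, a facilitated carrier of branched-chain amino acids and phenylalanine. It was 3.64-fold higher in ABA than in CON (log2 fold change 1.86, SE 0.31, adjusted p = 0.000129), and its WR minus ABA value was -1.74 (SE 0.32, adjusted p = 0.000227). *Slc43a2* (LAT4), on another chromosome, was not listed in ABA minus CON, with a limit near 0.42, and had a WR minus ABA value of 0.11 (SE 0.17, adjusted p = 0.614).

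Of the 9 sodium-coupled neutral carriers of family Slc38, 2 were higher in ABA mice and 1 was lower, each against CON mice. These were 22.2% and 11.1% of the 9, against 20.9% and 25.4% of all tested genes. *Slc38a2* (ENSMUSG00000022462, chromosome 15 of GRCm38 from 96687392 to 96699730) encodes SNAT2, a concentrating carrier of alanine, glutamine and other small neutral amino acids that is known to be induced by amino acid starvation in cultured cells. It was 2.30-fold higher in ABA than in CON (log2 fold change 1.20, SE 0.37, adjusted p = 0.0130) and 2.47-fold lower in WR than in ABA (log2 fold change -1.30, SE 0.37, adjusted p = 0.00744). Its neighbour *Slc38a1* (SNAT1), 44.5 kb away on the same strand, was not called, with a WR minus ABA value of -0.38 (SE 0.30, adjusted p = 0.314). *Slc38a9*, a lysosomal arginine sensor that signals to mTORC1, was higher in ABA, at 0.47 (SE 0.11, adjusted p = 0.00205). Its WR minus ABA value was -0.24 (SE 0.11, adjusted p = 0.0868). *Slc38a10* was lower in ABA at -0.48 (SE 0.14, adjusted p = 0.00799) and higher in WR than in ABA at 0.42 (SE 0.14, adjusted p = 0.0161). *Slc38a6* was called in WR minus ABA at 0.36 (SE 0.12, adjusted p = 0.0210), and its limit in ABA minus CON was about 0.30.

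The proton-coupled carriers of family Slc36 made up 3 tested members. *Slc36a1* (PAT1), which exports small neutral amino acids from lysosomes, was lower in ABA than in CON at -0.33 on the log2 scale (SE 0.08, adjusted p = 0.00230) and higher in WR than in ABA at 0.44 (SE 0.08, adjusted p = 0.000221). *Slc36a4* (PAT4), a carrier of proline and tryptophan, was at -0.29 in ABA minus CON (SE 0.09, adjusted p = 0.0136). In WR minus ABA it was at 0.39 (SE 0.09, adjusted p = 0.00177). *Slc36a2* (PAT2) lies 19.3 kb from *Slc36a1* on the opposite strand and was lower in WR than in ABA, at -0.56 (SE 0.15, adjusted p = 0.00528). It was not listed in ABA minus CON, with a limit near 0.37.

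Glutamate carriers of family Slc1 moved in both directions. *Slc1a3* (GLAST), the glutamate carrier with the highest level here, was 1.66-fold higher in ABA than in CON (log2 fold change 0.73, SE 0.15, adjusted p = 0.000758) and 1.88-fold lower in WR than in ABA (log2 fold change -0.91, SE 0.15, adjusted p = 8.24e-05). *Slc1a3* shares its strand and 2968 bases of span with the unclassified transcript *Gm37310*, whose WR minus ABA value was -1.53. *Slc1a2* (GLT-1), the main glutamate carrier of astrocytes, was lower in ABA at -0.78 (SE 0.30, adjusted p = 0.0397), and its WR minus ABA value was 0.11 (SE 0.33, adjusted p = 0.806). Its average was low, at 1.14 log2 CPM. *Slc1a1* was not called, at 0.89 in WR minus ABA (SE 0.38, adjusted p = 0.0608). The exchanger *Slc1a5*, the member with the highest level, was not called either, at 0.32 in WR minus ABA (SE 0.19, adjusted p = 0.187) and with a limit near 0.47 in ABA minus CON.

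The largest differences of all members were found in family Slc6, in carriers whose main substrates are not amino acids of protein. *Slc6a2* (ENSMUSG00000055368, chromosome 8 of GRCm38 from 92960079 to 93001667) encodes the noradrenaline transporter, which clears the transmitter of sympathetic nerves. It was 9.46-fold lower in ABA mice than in CON mice (log2 fold change -3.24, SE 0.42, adjusted p = 1.14e-05) and 5.35-fold higher in WR than in ABA (log2 fold change 2.42, SE 0.45, adjusted p = 0.000291). Its average was low, at 1.48 log2 CPM, against a median of 3.83 over all tested genes. *Slc6a13* (ENSMUSG00000030108, chromosome 6 of GRCm38 from 121300227 to 121337733) encodes GAT2, a carrier of GABA and taurine. It was 8.47-fold lower in ABA mice than in CON mice (log2 fold change -3.08, SE 0.38, adjusted p = 6.59e-06) and 7.41-fold higher in WR than in ABA (log2 fold change 2.89, SE 0.39, adjusted p = 1.18e-05). *Slc6a12*, the betaine carrier that starts 5.34 kb beyond its end on the same strand, had a WR minus ABA value of -0.08 (SE 0.22, adjusted p = 0.793) and was not listed in ABA minus CON, with a limit near 0.55.

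Markers of other cell types were called in both directions in the same comparisons. Over all tested genes, 20.9% were higher and 25.4% lower in ABA minus CON, and 25.0% and 20.9% in WR minus ABA. Of 6 fibroblast and progenitor markers, 3 were lower and 2 were higher in ABA minus CON, and 3 were higher and 2 were lower in WR minus ABA. The collagen *Col1a1* was at -3.82 in ABA minus CON and 4.27 in WR minus ABA, and *Col3a1* was at -3.56 and 4.05. *Dcn* was at 0.61 in ABA minus CON and -0.89 in WR minus ABA, *Dpp4* was at 0.39 in ABA minus CON, and *Pdgfra* was at -0.46 in WR minus ABA. Of 4 mesothelial markers, 3 were lower in ABA than in CON and 3 were higher in WR than in ABA. Of 6 macrophage markers, 3 were lower and 1 was higher in ABA, and 5 were higher in WR than in ABA. Of 4 endothelial markers, 0 were called in ABA minus CON by limma, and 3 were higher in WR than in ABA. The part of these cell types in the result was not tested, and levels per group were not analysed here.

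*Slc6a4*, the serotonin transporter, was opposite to its noradrenaline relative. It was 2.96-fold higher in ABA than in CON (log2 fold change 1.56, SE 0.36, adjusted p = 0.00171) and 4.27-fold lower in WR than in ABA (log2 fold change -2.10, SE 0.40, adjusted p = 0.000346). The average of *Slc6a4* was 0.64 log2 CPM, so that these values rest on low counts. Of 5 mast cell markers, 0 were higher and 1 was lower in ABA minus CON, and 4 were lower in both WR minus ABA and WR minus CON. Of 3 tested T and B cell markers, *Cd3e* was 1.99-fold higher in ABA than in CON, and 0 were called in WR minus ABA by limma, with 0 higher and 1 lower at an unadjusted p under 0.05. The part of these cells in the result was not tested.

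Of the remaining members of Slc6, *Slc6a6*, the taurine carrier, was lower in WR than in ABA at -0.47 (SE 0.16, adjusted p = 0.0223), with a limit near 0.40 in ABA minus CON. *Slc6a20b*, a gene of the proline carrier type, was higher in ABA than in CON at 0.82 (SE 0.25, adjusted p = 0.0126) and had a WR minus ABA value of -0.22 (SE 0.24, adjusted p = 0.481). Its near copy *Slc6a20a* was not among the tested genes, and reads that both share are uncertain. *Slc6a20b* also shares 1801 bases with *Sacm1l* on the opposite strand, which had an average of 6.57 log2 CPM and a WR minus ABA value of -0.49 (adjusted p = 0.000890). The creatine carrier *Slc6a8* was at -0.44 in WR minus ABA (SE 0.18, adjusted p = 0.0526). *Slc7a6os*, which is no carrier, was at 0.35 in ABA minus CON (SE 0.11, adjusted p = 0.0118) and at -0.30 in WR minus ABA (SE 0.11, adjusted p = 0.0274). It ends 2.01 kb from the end of *Slc7a6*, on the opposite strand.

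The 17 members called in no comparison were *Slc1a1*, *Slc1a4*, *Slc1a5*, *Slc38a1*, *Slc38a3*, *Slc38a4*, *Slc38a7*, *Slc38a11*, *Slc43a2*, *Slc6a8*, *Slc6a9*, *Slc6a12*, *Slc6a17*, *Slc7a1*, *Slc7a2*, *Slc7a4* and *Slc7a7*. They include both exchangers of the ASC type and all 3 tested genes of the cationic carrier group. Of these, *Slc7a1* and *Slc7a2* encode carriers that bring arginine and lysine into cells. Their WR minus ABA log2 fold changes lay between -1.39 for *Slc38a4* and 0.89 for *Slc1a1*. The value of *Slc38a4* had an SE of 0.58 and a 95% confidence interval from -2.61 to -0.16, and it missed the threshold after adjustment over all tested genes (adjusted p = 0.0600).

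Whether members were back at CON levels after weight restoration was read from WR minus CON, which was derived for the 18 members listed in ABA minus CON by adding their values in the other comparisons. The derived differences ran from -0.82 for *Slc6a2* to 0.60 for *Slc6a20b* on the log2 scale. *Slc7a8* was at 0.15, with a 95% confidence interval from -0.82 to 1.12, and *Slc38a2* was at -0.10, with an interval from -0.88 to 0.68. These intervals are wide, and they do not show that WR and CON levels were the same. *Slc7a10*, with an interval from -0.19 to 0.44 around 0.12, and *Slc36a1*, with an interval from -0.06 to 0.28 around 0.11, were held more narrowly.

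Intervals of 4 derived differences did not include 0, although none of these genes was called in WR minus CON. They were *Slc6a20b* with an interval from 0.09 to 1.12, *Slc43a3* from 0.01 to 0.56, *Slc38a9* from 0.002 to 0.47 and *Slc1a2* from -1.34 to -0.01. The other derived intervals included 0. The intervals are not adjusted for the number of members. *Slc6a2* was at -0.82 with an interval from -1.74 to 0.10. Both SEs behind a derived interval involve the ABA libraries, so that it may be too wide for a gene that is very low in ABA. For *Stc2*, at -2.81 in ABA minus CON, these SEs were 0.29 and 0.31, and the SE of its listed WR minus CON value was 0.21. Whether the interval of *Slc6a2* would include 0 with its own SE is therefore uncertain. For genes higher in ABA, such as *Slc6a20b*, *Slc43a3* and *Slc38a9*, a derived interval may instead be too narrow. Over genes listed in both CON comparisons, 95% of ratios of the derived to the deposited SE lay from 0.924 to 1.41. The intervals of *Slc43a3* and *Slc38a9* end near 0, so whether they exclude it is uncertain too.

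**Figure D3:**
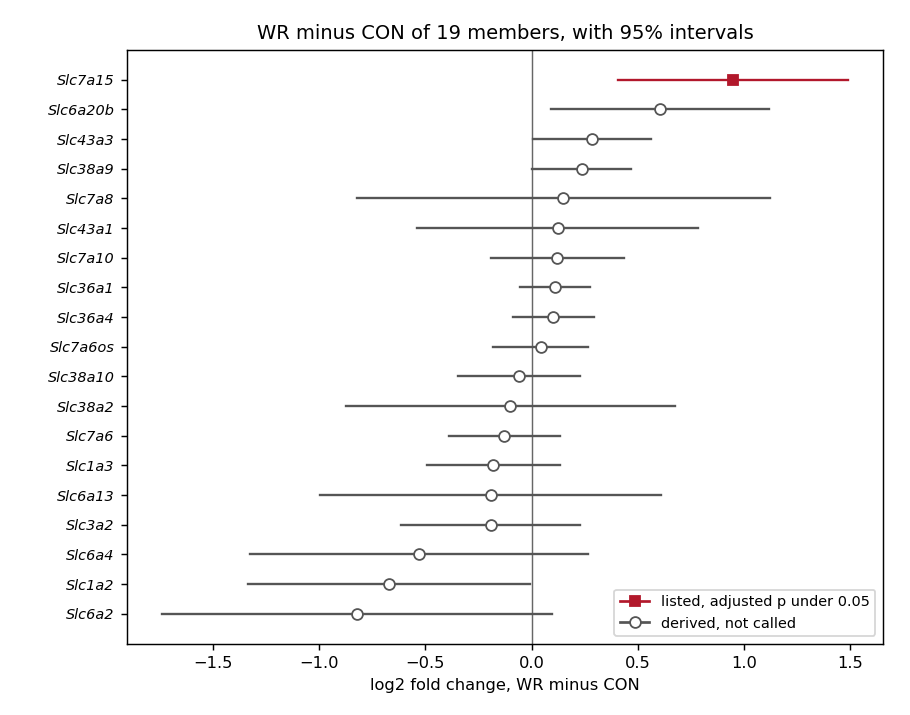
WR minus CON log2 fold change of 19 members with 95% confidence intervals. The square is the listed value of *Slc7a15*, at 0.95, and the circles are the 18 derived values, which ran from -0.82 to 0.60.

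Genes that work with these carriers were counted in 5 lists. Over all tested genes, 20.9% were higher and 25.4% lower in ABA minus CON. These shares were 25.0% and 20.9% in WR minus ABA, and 4.04% and 3.18% in WR minus CON. No list was tested against them. The list of amino acid response targets of ATF4 had 25 tested genes of 27, of which 9 had risen and 7 had fallen in ABA minus CON, and 6 had risen and 10 had fallen in WR minus ABA. The genes with the smallest adjusted p in any comparison were *Stc2*, *Pycr1*, *Aldh18a1* and *Gpt2*. *Stc2*, which encodes a secreted glycoprotein, was at -2.81 in ABA minus CON (SE 0.29, adjusted p = 1.31e-06). *Pycr1*, an enzyme of proline synthesis, was at -2.80 in ABA minus CON (SE 0.37, adjusted p = 1.37e-05). *Aldh18a1*, which acts before it, was at -2.00 (SE 0.29, adjusted p = 3.36e-05). *Gpt2*, a mitochondrial alanine aminotransferase, was at 1.19 in ABA minus CON (SE 0.22, adjusted p = 0.000279) and at -1.42 in WR minus ABA (SE 0.21, adjusted p = 3.96e-05). *Ddit4*, an inhibitor of mTORC1 that was added after its values were seen, was 7.43-fold higher in ABA than in CON (log2 fold change 2.89, SE 0.53, adjusted p = 0.000257). Also added after their values were seen are the list genes *Atf4*, *Trib3* and *Chac1*. All of them, the factor's own gene included, are among the 9 that had risen. *Atf4* was at 0.46 in ABA minus CON (SE 0.17, adjusted p = 0.0346) and at -0.71 in WR minus ABA (SE 0.17, adjusted p = 0.00233). *Trib3* was at 1.10 and *Chac1* at 0.88 in ABA minus CON, beside the 7 genes of the list that fell. WR minus CON held 0 higher and 3 lower genes of this list by limma.

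Of 12 enzymes that make or use glutamine and glutamate, 11 were tested, and 6 rose and 1 fell in ABA minus CON. In WR minus ABA, 0 rose and 8 fell by limma, with 0 higher at an unadjusted p under 0.05, and 2 were lower in WR minus CON. The genes of this list also include *Gpt2*. *Glul*, the glutamine synthetase, was 4.55-fold higher in ABA than in CON (log2 fold change 2.18, SE 0.21, adjusted p = 5.44e-07) and at -2.28 in WR minus ABA (SE 0.21, adjusted p = 2.31e-07). *Glud1*, glutamate dehydrogenase, was at 0.74 in ABA minus CON (SE 0.10, adjusted p = 1.81e-05) and at -0.35 in WR minus CON (SE 0.10, adjusted p = 0.0361). *Gclc*, the catalytic subunit for the first step of glutathione synthesis, was at 0.71 in ABA minus CON (SE 0.21, adjusted p = 0.00922).

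Among genes of amino acid sensing to mTORC1, 34 of 35 were tested, with 9 higher and 10 lower in ABA minus CON, 7 higher and 13 lower in WR minus ABA, and 0 higher and 2 lower in WR minus CON by limma. *Sesn3*, a relative of the leucine sensor *Sesn2*, was at -0.84 in ABA minus CON (SE 0.11, adjusted p = 1.19e-05). The other sestrins of the list went the opposite way. In ABA minus CON, *Sesn2* was 2.25-fold higher (adjusted p = 0.00233) and *Sesn1* was 3.24-fold higher (adjusted p = 0.000119). *Castor2*, a relative of the arginine sensor *Castor1*, was at -0.83 (SE 0.11, adjusted p = 1.21e-05). *Fnip1*, a partner of folliculin, was at 0.65 (SE 0.11, adjusted p = 9.26e-05), and *Tsc1*, part of the complex that restrains mTORC1, was at 0.64 (SE 0.10, adjusted p = 9.29e-05).

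Carriers of other families had 8 tested genes of 13, of which 3 rose and 2 fell in ABA minus CON, and 2 rose and 2 fell in WR minus ABA. *Slc16a10*, the aromatic amino acid carrier TAT1, was higher than in CON in both ABA, at 0.53 (SE 0.13, adjusted p = 0.00229), and WR, at 0.47 (SE 0.13, adjusted p = 0.0331). It was the one gene of this list called in WR minus CON. The lysosomal carrier *Slc17a5* was at 0.56 in ABA minus CON (SE 0.10, adjusted p = 0.000293), and *Mfsd12*, also lysosomal, was at -0.85 (SE 0.21, adjusted p = 0.00261). *Slc15a3*, a lysosomal peptide carrier, was at 0.89 in WR minus ABA (SE 0.20, adjusted p = 0.00137).

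Partners of the carriers and the ubiquitin ligases that remove them from the cell surface had 5 tested genes of 7. In ABA minus CON 2 were higher and 2 lower, in WR minus ABA 2 were higher and 1 lower, and in WR minus CON 0 were called by limma. The kinase gene *Sgk1*, whose product restrains the ligase NEDD4L, was at 1.25 in ABA minus CON (SE 0.22, adjusted p = 0.000212), and its relative *Sgk3* was at 0.52 (SE 0.11, adjusted p = 0.000743). *Nedd4l* itself was at -0.40 (SE 0.09, adjusted p = 0.00117). *Arl6ip5*, a partner of the neuronal glutamate carrier, was at -0.48 (SE 0.09, adjusted p = 0.000272).

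**Figure D4:**
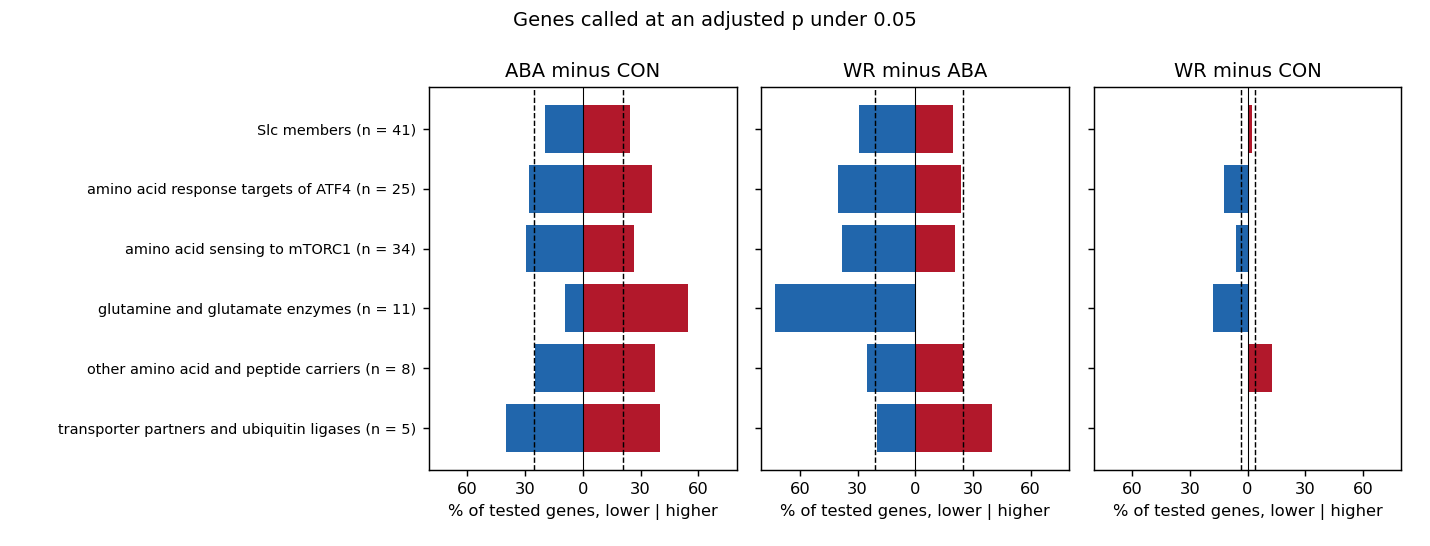
Share of tested genes called higher (red, right) or lower (blue, left) at an adjusted p under 0.05, for the 41 members and the 5 lists, in ABA minus CON, WR minus ABA and WR minus CON. Dashed lines show the shares over all 16272 tested genes, which for ABA minus CON were 20.9% higher and 25.4% lower.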

How the data were processed

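Perigonadal fat of 6 ABA, 6 WR and 6 CON mice was analyzed by bulk RNA seq. The authors ran FastQC 0.11.8, Trimmomatic 0.38, STAR 2.5.1a on GRCm38.p6 and RSEM 1.3.0, kept genes with a CPM of at least 1 in at least 5 samples, applied TMM scaling (edgeR) and used limma-voom, with condition as the sole term. The log2 fold changes and average log2 CPM are the authors' deposited values. The score used is the moderated t, as deposited by the authors. The p-values are those deposited by the authors, with Benjamini-Hochberg adjustment. These are the authors' own comparisons. Sheets of intersecting genes were not used. Per-sample values, depth and other fits were not analysed here, and p-values measure the spread between labelled mice.

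The SE was the log2 fold change divided by t, and 95% intervals took 18.4 degrees of freedom, the value at which t gives p. A derived difference is the sum of the other comparisons, with the root mean square of their SEs. Over 602 genes listed in both CON comparisons, the ratio of that SE to the deposited SE had a median of 1.01, and 95% of ratios lay from 0.924 to 1.41. Signs were settled by the identity of the 3 comparisons and by *Lep*, which was -6.48 in ABA minus CON. Limits for unlisted members are 2.48 times the SE of WR minus ABA. The SE of ABA minus CON was 0.992 times that of WR minus ABA at the median, so limits are approximate. Scripts were tested on simulated data in which each gene had the same spread in every group. Derived SEs for genes whose SE differs between comparisons were therefore not tested.

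Members and lists were chosen with earlier results of these data known. Every member was named by role, with values for those called, and up to 4 genes per list with the smallest adjusted p. Other members, list genes and neighbours given values were chosen after these were seen. Gene positions came from GENCODE M21. Promoters are from RefSeq. Alternatives were stricter thresholds, another adjustment, a level minimum, narrower membership and a larger SE. Python 3.11.15, pandas 2.3.3 and SciPy 1.17.1 were used.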

Additional observations from a re-analysis of the deposited data

How the results depend on the processing

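In ABA against CON, the 18 called members became 11 at an adjusted p under 0.01, 7 where the log2 fold change had also to reach 1 in size, and 10 under the Benjamini-Yekutieli adjustment. Of all genes listed in that comparison, 22.5% had a log2 fold change of at least 1 in size. Of the 18 members, 12 were carriers of amino acids, and all 18 had an average of at least 0 log2 CPM. The carriers of amino acids leave out the heavy chain, *Slc43a3*, *Slc7a6os* and the Slc6 carriers of other substrates. In WR against ABA, the 20 became 14 at an adjusted p under 0.01, 10 with that size and 12 under that adjustment. They became 18 at an average of at least 0 log2 CPM and 13 among carriers of amino acids alone. In WR against CON, the single call, *Slc7a15*, became 0 under the threshold of 0.01, the size of 1, the other adjustment, and an average of at least 0 log2 CPM. Each of these settings only narrows the list. Shares over all tested genes at these settings are not given here, so the narrowed counts describe the members alone. Without *Slc7a6os*, an alternative chosen after seeing the data, the counts were 17, 19 and 1. With the larger SE, 3 in place of 4 derived intervals did not include 0, and *Slc1a2* dropped out. Of the 39 single calls, 14 were lost at 0.01 and 17 under the other adjustment. Leaving out replicates was not analysed here, because the values used are fitted comparisons. No paired analysis was possible because no per-sample values were used.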
